A study of Mus musculus with 8 samples.

Results

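Guanine and adenine nucleotides are built from a shared precursor, inosine monophosphate (IMP), and 10 genes for enzymes that move purines between IMP, the guanine branch and the adenine branch were followed in brown adipose tissue (BAT). They were taken by symbol from a table of 49452 genes, and all 10 were found. The list was drawn up around Gmpr and Impdh1, which were chosen because they changed in opposite directions in the cold, so their cold values are given here as a description without a test. The other 8 genes are Gmpr2, Impdh2, Gmps, Ampd2, Ampd3, Adss, Adsl and Guk1.

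RNA-Seq libraries were made from the BAT of 8 male C57BL/6 mice, in 4 groups of 2. Mice aged 10 to 12 weeks were kept at 22 °C (replicates 4 and 7) or exposed to 4 °C for 24 h per the labels (replicates 2 and 11). The methods of the study give 20 h of cold and then 4 h of fasting, and leave unclear whether the fast was at 4 °C and whether the 22 °C mice were fasted. Mice aged 32 weeks had received a high-fat diet (HFD, replicates 2 and 6) or a control diet (CD, replicates 6 and 8) for 28 weeks. The labels call the control food normal chow. The study asked which transcripts follow BAT activity under these conditions. The labels name no allele, transgene or drug in any group. The cold and diet experiments differ in the age of the mice, so tests were made only within an experiment, and levels across experiments are a description.

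The enzymes form a loop around IMP. IMP dehydrogenase (Impdh1 and Impdh2) oxidises IMP to xanthosine monophosphate, the rate-limiting step toward guanine nucleotides, and GMP synthetase (Gmps) aminates that product to GMP. GMP reductase (Gmpr and Gmpr2) runs the opposite way and returns GMP to IMP, while guanylate kinase (Guk1) phosphorylates GMP to GDP. On the adenine side, adenylosuccinate synthetase (Adss) and adenylosuccinate lyase (Adsl) convert IMP to AMP, and AMP deaminase (Ampd2 and Ampd3) converts AMP back to IMP. Purine nucleotides bind and inhibit UCP1, the uncoupling protein through which brown fat makes heat.

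The 250 bases before the RefSeq transcription start (GRCm38.p6) are shown for the genes with the largest cold differences on which the results below turn. The Gmpr window is chr13:45507194-45507443 (plus strand), the Impdh1 window is chr6:29216365-29216614 (minus strand), and the Ampd2 window is chr3:108085403-108085652 (minus strand). The first and second adjoin the deposited gene start, whereas the Ampd2 window lies inside the deposited gene. Capitals mark exact matches, on either strand, to a GC box (GGGCGG) or a nuclear receptor core motif (AGGTCA).
Gmpr: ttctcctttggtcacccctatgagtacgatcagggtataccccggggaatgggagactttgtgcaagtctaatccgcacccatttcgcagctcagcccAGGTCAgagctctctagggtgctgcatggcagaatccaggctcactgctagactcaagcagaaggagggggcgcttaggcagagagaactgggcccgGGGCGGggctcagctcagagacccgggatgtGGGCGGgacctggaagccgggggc
Impdh1: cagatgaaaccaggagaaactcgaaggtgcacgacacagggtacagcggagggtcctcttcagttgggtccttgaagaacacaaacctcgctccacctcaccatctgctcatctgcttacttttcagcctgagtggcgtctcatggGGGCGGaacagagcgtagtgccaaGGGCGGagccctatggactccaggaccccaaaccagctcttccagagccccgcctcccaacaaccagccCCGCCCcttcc
Ampd2: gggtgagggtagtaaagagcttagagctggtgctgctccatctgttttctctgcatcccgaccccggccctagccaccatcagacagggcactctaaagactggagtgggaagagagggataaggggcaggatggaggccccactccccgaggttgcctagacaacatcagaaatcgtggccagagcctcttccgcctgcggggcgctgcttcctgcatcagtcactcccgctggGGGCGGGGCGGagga
GC boxes numbered 2 in Gmpr, 3 in Impdh1 and 2 overlapping ones in Ampd2. A GC box was present in 32.7% of 32851 windows of this length. Gmpr also held 1 AGGTCA, a motif found in 14% of windows. The cAMP response element TGACGTCA (1.5% of windows), its core TGACG (17.8%) and the E-box CACGTG (6.0%) were not in these 3 windows. A second RefSeq start of Impdh1, at chr6:29212298-29212547, had 2 GC boxes and none of the others. A second RefSeq start of Ampd2, at chr3:108085427-108085676, had none of the motifs. A match is a description of letters only.

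Values are FPKM, the number of fragments scaled for the length of the transcript and for the mapped total of each library, so that levels of different genes can be compared. The libraries listed 23543 to 32686 genes above 0. The lowest value of a member, Gmpr2 at 4 °C replicate 11, corresponded to about 225 fragments, and intervals from such numbers would cover counting error only. Brown adipocyte markers were present throughout, with Ucp1 at 699 to 6462 FPKM. In the cold 6 of 8 of them were higher in both libraries (37.9% of all genes) and 1, Prdm16, was lower in both (20.6%). Among them 3, Ppargc1a, Dio2 and Elovl3, were called, all higher, beside 1.44% of all genes. Both 22 °C libraries and CD replicate 6 listed every X-linked gene at 0 and at most 1 mitochondrial gene above 0, against 15 in the other libraries. This feature, and any part it has in the scaling of the FPKM, cannot be told apart from temperature in the cold comparison. No member is X-linked or mitochondrial. The sample descriptions open with 1 code for the cold experiment and CD replicate 6 (5 libraries) and with another for CD replicate 8 and both HFD libraries (3 libraries). What the code stands for is not stated. P-values measure the spread between these libraries. With 2 libraries a group the smallest exact permutation p is 0.333, so tests rest on limma, which pools the spread across genes. The SE printed with a fold change also comes from that fit. It is therefore not the spread of the gene's own libraries alone.

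Gmpr was the member that differed most between conditions. It was listed at 16.6 FPKM in both 22 °C libraries and at 696 and 876 FPKM at 4 °C. The ratio of the group means was 47.3, and the log2 fold change was 5.47 ± 0.25 (SE, n = 2 per group). The gene (chromosome 13, 45507444 to 45546382, plus strand) overlaps no other annotated gene. In the diet experiment Gmpr was at 91.3 and 175 FPKM on CD and at 61.8 and 61.1 FPKM on HFD. As a description, these 4 values lie between those at 22 °C and at 4 °C. Ucp1 was at 699 and 1427 FPKM at 22 °C and 6462 and 5371 FPKM at 4 °C beside the Gmpr values, and the part of brown adipocytes in them was not tested. Under 3 other scalings of the libraries the cold fold change was 5.22, 5.18 and 5.06.

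Impdh1, in contrast, was lower in the cold. It was listed at 46.7 and 24.3 FPKM at 22 °C and at 4.00 and 5.12 FPKM at 4 °C, a log2 fold change of -2.65 ± 0.34 (SE, n = 2 per group). The mean was 7.78-fold lower in the cold. On CD it was 4.63 and 6.68 FPKM and on HFD 5.50 and 5.06 FPKM, so 6 libraries lay between 4.00 and 6.68 FPKM and both 22 °C libraries lay far above them. CD replicate 6, which listed its X-linked genes in the same way as the 22 °C libraries, was at 4.63 FPKM. The part of that feature in the Impdh1 values was not tested.

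**Figure D1:**
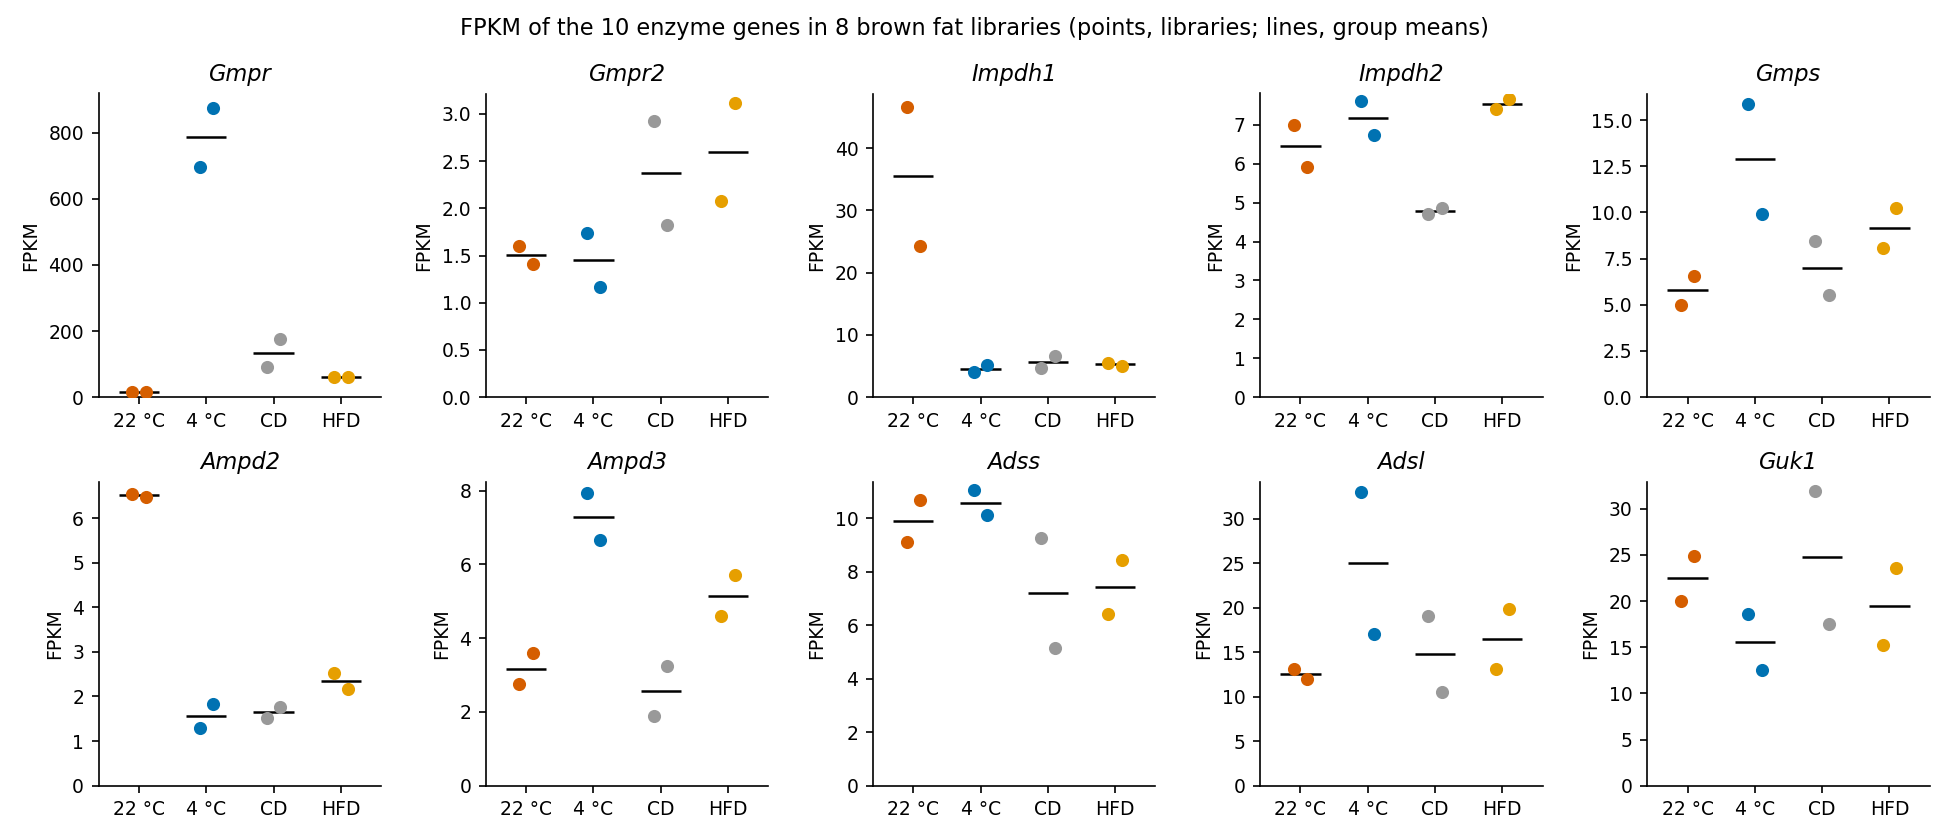
FPKM of each of the 10 genes (vertical axes, linear, from 0) in the 8 libraries by group; points are libraries and lines group means. Gmpr is at 16.6 FPKM in both 22 °C libraries and at 696 and 876 FPKM at 4 °C, whereas Impdh1 is at 46.7 and 24.3 FPKM at 22 °C and under 10 FPKM elsewhere.

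The second isozymes showed overlapping groups. Gmpr2 was low in every library, at 1.61 and 1.41 FPKM at 22 °C and 1.74 and 1.17 FPKM at 4 °C (log2 fold change -0.04 ± 0.18 SE, adjusted p = 0.909). Impdh2 was at 6.99 and 5.92 FPKM at 22 °C and 7.62 and 6.73 FPKM at 4 °C (0.14 ± 0.19, adjusted p = 0.704). Gmpr accounted for 91.2% and 92.2% of the summed reductase FPKM at 22 °C and for 99.8% and 99.9% at 4 °C. Impdh1 supplied 87% and 80.4% of the summed dehydrogenase FPKM at 22 °C but 34.4% and 43.2% at 4 °C. Impdh2 was therefore the more abundant dehydrogenase transcript in both cold libraries and Impdh1 in both 22 °C libraries. The ratio of reductase to dehydrogenase transcripts, both isozymes summed, was 0.340 and 0.597 at 22 °C and 60.0 and 74.0 at 4 °C. These shares contain the selected genes and carry no test.

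Gmps, which completes the step to GMP, was at 5.02 and 6.56 FPKM at 22 °C and at 15.9 and 9.90 FPKM at 4 °C. The cold libraries were both higher, but the difference (1.01 ± 0.28 SE) missed the threshold after adjustment (adjusted p = 0.112). Guk1, which draws GMP toward GDP, was at 19.99 and 24.9 FPKM and at 18.6 and 12.5 FPKM. Both cold libraries were lower, again without passing (-0.52 ± 0.26, adjusted p = 0.287).

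On the adenine side, the AMP deaminases lay on opposite sides of 0. Ampd2, the broadly expressed isozyme, was at 6.55 and 6.47 FPKM at 22 °C and at 1.30 and 1.84 FPKM at 4 °C. It fell with a log2 fold change of -1.56 (SE 0.19), which passed the limma test after Benjamini-Hochberg adjustment (adjusted p = 0.0415), and the means differed 4.15-fold. It was the only one of the other 8 genes to pass, and the call was lost without any filter on low values (adjusted p = 0.234) and when any 1 library was left out (0.0584 to 0.147). Of all genes, 6 were called without a filter and 0 without either 4 °C library, so that these settings left few or no calls for any gene, whereas 244 and 122 were called without 22 °C replicate 4 and 7. For Ampd2 the fold change stayed between -2.01 and -1.40 in all 14 alternatives. Ampd3, an isozyme known from red blood cells, was at 2.75 and 3.598 FPKM at 22 °C and at 7.93 and 6.66 FPKM at 4 °C, so the groups did not overlap. Its difference of 0.99 ± 0.20 had an adjusted p of 0.0684 and was just short of 2-fold. Over the alternatives the limma adjusted p ran from 0.0426 to 0.589. It was under 0.05 after median centring (log2 fold change 0.74) and with library type as a covariate (0.99), both short of 2-fold. Ampd3 was therefore not called in any setting.

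The sum of both deaminases was 9.30 and 10.1 FPKM at 22 °C and 9.23 and 8.49 FPKM at 4 °C. Within that sum the share of Ampd3 was 29.6% and 35.7% at 22 °C and 85.9% and 78.4% at 4 °C. Of this pair, Ampd2 was the more abundant transcript in both 22 °C libraries and Ampd3 in both cold libraries. With Ampd1, the deaminase of skeletal muscle, the sum of all 3 was 12.3 and 10.8 FPKM at 22 °C and 22.7 and 13.97 FPKM at 4 °C. Ampd1 made up 24.3% and 6.51% of it at 22 °C and 59.4% and 39.2% at 4 °C, and was the most abundant deaminase transcript in 4 °C replicate 2. No read strand is stated for the FPKM estimates. Ampd2 overlaps an antisense transcript (Gm12500) and Ampd3 overlaps Rnf141 and B430319F04Rik on the opposite strand, and without strand their reads could not be told apart. The same holds for Gmpr2 with Tinf2, Impdh2 with Ndufaf3 and Adss with the pseudogene Gm16585. Adsl overlaps the pseudogene Gm6612, and Ampd3 the microRNA gene Gm47282, on the same strand, where strand would not separate the reads.

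**Figure D2:**
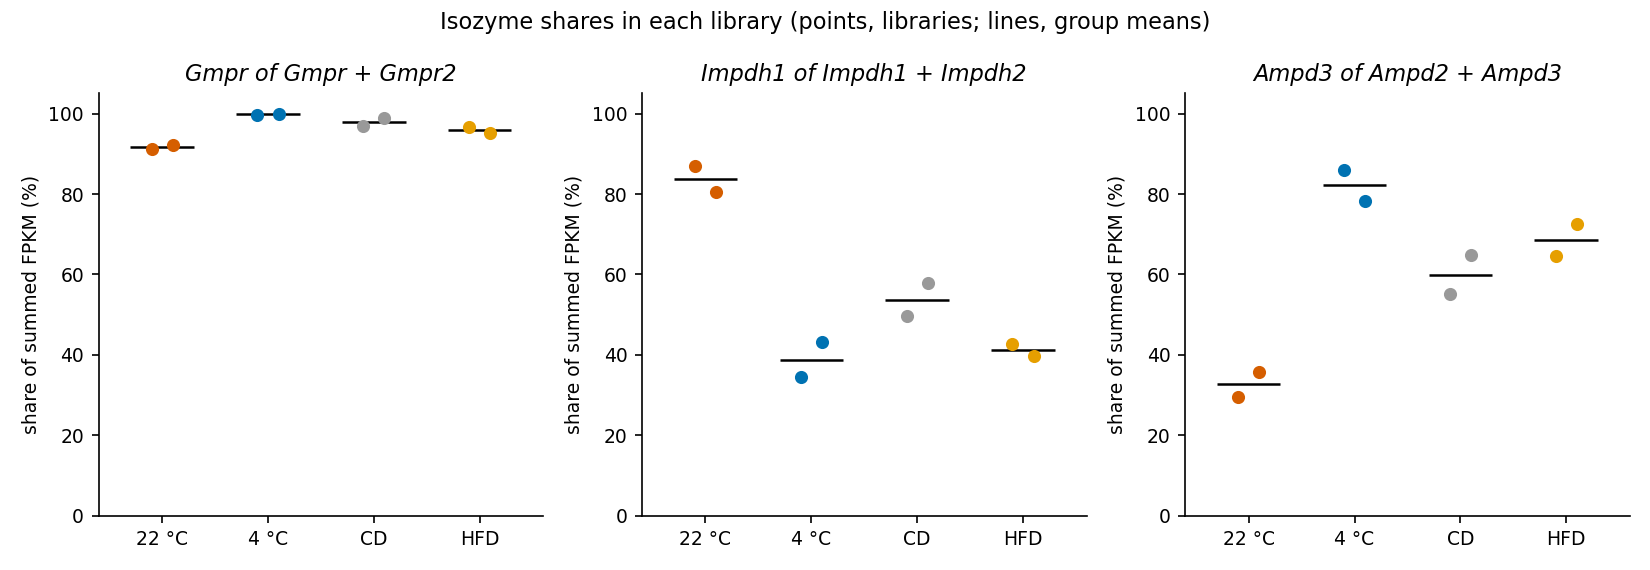
Share of the summed FPKM of each isozyme pair (vertical axes, percent, 0 to 100) taken by Gmpr, Impdh1 and Ampd3 in each library; points are libraries and lines group means. Impdh1 supplies 87% and 80.4% at 22 °C and 34.4% and 43.2% at 4 °C, and Ampd3 29.6% and 35.7% against 85.9% and 78.4%.

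The genes that make AMP from IMP did not pass. Adss was at 9.10 and 10.7 FPKM at 22 °C and 11.1 and 10.1 FPKM at 4 °C, with overlapping groups (0.09 ± 0.19 SE, adjusted p = 0.809). Adsl, which also acts in the making of IMP, was at 13.1 and 11.9 FPKM and at 33.0 and 17.0 FPKM. Both cold libraries were higher, and the difference was not past the threshold (0.87 ± 0.34, adjusted p = 0.196).

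Of the other 8 genes, 1 passed the test in the cold (Ampd2, lower), against 1.44% of 17470 genes called in either direction and 0.223% called lower. In 3 of the 8, Gmps, Ampd3 and Adsl, both 4 °C libraries were above both 22 °C libraries, which was the case for 37.9% of all genes. In 2, Ampd2 and Guk1, both were below, which was the case for 20.6%. The median log2 fold change of the 8 was 0.11, beside 0.07 over all genes tested. Genes averaging 1 FPKM or more had a median of 0.21 in the cold and 0.29 under HFD, so that small differences depend on the scaling: Impdh2 and Adss were below 0 in the cold under 3 of 3 other scalings.

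**Figure D3:**
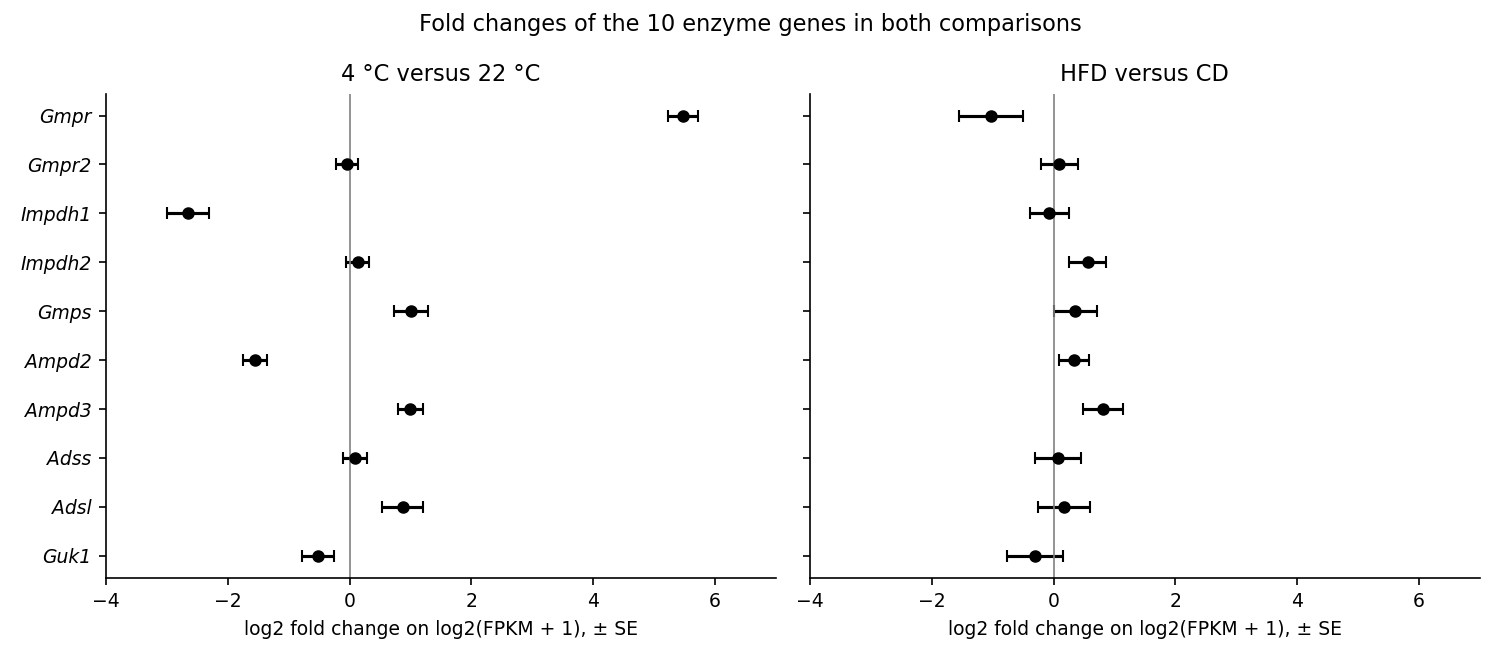
Log2 fold change (horizontal axes, log2(FPKM + 1) scale; bars, SE) of the 10 genes, 4 °C against 22 °C on the left and HFD against CD on the right. Gmpr at 5.47 and Impdh1 at -2.65 were selected on their cold difference; under HFD the values run from -1.03 for Gmpr to 0.81 for Ampd3.

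No member passed the test under HFD, where 0.0684% of 17535 genes were called. A missed threshold does not show that levels were alike. Both HFD libraries were above both CD libraries for 3 of the 10 members, Impdh2, Ampd2 and Ampd3, as for 39.9% of all genes. They were below for 1, Gmpr, as for 5.8% of all genes. The median of the 10 was 0.14, beside 0.18 over all genes tested.

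Both HFD libraries listed less Gmpr than both CD libraries, and the fitted difference was -1.03 ± 0.53 (SE, n = 2 per group, limma adjusted p = 0.432). The HFD libraries were close together at 61.8 and 61.1 FPKM, and the spread lay in the CD libraries at 91.3 and 175 FPKM. The satellite gene Gm10800, above 100 FPKM in 1 library of each group and low in the other, divides the libraries into types, and within the high and the low type the Gmpr difference was -1.48 and -0.57. With type as a covariate the adjusted p was 0.044, and over all 14 alternatives it ran from 0.044 to 1.0. Without CD replicate 8 the fold change was -0.56. Among 8 brown adipocyte markers none was called under HFD. Both HFD libraries were lower for 2 of them (5.8% of all genes) and higher for 3 (39.9% of all genes). The 2 lower markers were Elovl3 and Cidea. Elovl3 was at 234 and 118 FPKM on CD and 18.1 and 17.8 FPKM on HFD. Cidea was at 1116 and 759.8 FPKM and at 464 and 412 FPKM. The 3 higher markers were Ppargc1a, Dio2 and Prdm16. Ppargc1a was at 4.39 and 5.86 FPKM on CD and 7.41 and 6.66 FPKM on HFD. Dio2 was at 12.7 and 4.87 FPKM and at 17.4 and 13.5 FPKM. Ucp1, Cox7a1 and Cox8b overlapped between the diets. The part of brown adipocytes in the Gmpr values on the diets was not tested. Without CD replicate 6, which leaves 3 libraries with 1 description code, the Gmpr fold change was -1.49.

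Impdh1 showed overlapping groups on the diets (-0.07 ± 0.32 SE, adjusted p = 0.944). Impdh2 was at 4.70 and 4.86 FPKM on CD and 7.41 and 7.66 FPKM on HFD, close within each group but not past the threshold (0.56 ± 0.30, adjusted p = 0.455). The reductase to dehydrogenase ratio was 10.1 and 15.3 on CD and 4.95 and 5.05 on HFD, and Impdh1 held 49.6% and 57.9% of the dehydrogenase FPKM on CD and 42.6% and 39.8% on HFD.

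Ampd3 was at 1.88 and 3.25 FPKM on CD and 4.61 and 5.70 FPKM on HFD (0.81 ± 0.32 SE, adjusted p = 0.320), and Ampd2 was at 1.53 and 1.77 FPKM and at 2.52 and 2.16 FPKM (0.34 ± 0.25, adjusted p = 0.592). Both deaminases were thus higher in both HFD libraries, although Ampd2 was at -0.0201 after median centring. Their sum was 3.41 and 5.02 FPKM on CD against 7.13 and 7.86 FPKM on HFD. With Ampd1 included, the sum of all 3 deaminases overlapped between the diets, at 6.81 and 12.51 FPKM on CD and 7.64 and 7.97 FPKM on HFD. Ampd1 made up 49.97% and 59.9% of it on CD and 6.64% and 1.28% on HFD. Markers of macrophages were higher in both HFD libraries for 7 of 8 genes, where 39.9% of all genes were, with a summed level of 40.9 to 116 FPKM on CD and 198 to 261 FPKM on HFD. Erythroid markers (6 of 8 found) summed to 99.99 and 156 FPKM on CD and 195 and 393 FPKM on HFD, and to 48.7 and 67.9 FPKM at 22 °C and 28.7 and 113 FPKM at 4 °C. White adipocyte markers, of which Retn was the highest in the mean over all libraries, summed to 28.8 and 18.4 FPKM on CD and 215 and 220.5 FPKM on HFD, and 3 of the 7 tested, Lep, Nnat and Npr3, were called higher, beside 0.0684% of all genes called. The part of these cells in the Ampd2 and Ampd3 values was not tested.

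The remaining members overlapped between the diets. Gmps was at 8.45 and 5.54 FPKM on CD and 8.06 and 10.3 FPKM on HFD (adjusted p = 0.693), and Gmpr2 at 2.92 and 1.83 FPKM and at 2.08 and 3.12 FPKM (adjusted p = 0.913). Adss was at 9.25 and 5.14 FPKM on CD and 6.43 and 8.42 FPKM on HFD (adjusted p = 0.946), Adsl at 19.0 and 10.6 FPKM and at 13.2 and 19.8 FPKM (adjusted p = 0.888). Guk1, the most abundant member after Gmpr in all 4 diet libraries, was at 31.9 and 17.6 FPKM on CD and 15.3 and 23.6 FPKM on HFD (adjusted p = 0.802). For all 5 genes the CD replicates differed from each other by more than the group means did.

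Genes whose levels were most like those of Impdh1 included another member, Ampd2. Among 10877 genes averaging 1 FPKM or more, the highest Pearson r with Impdh1 across the 8 libraries belonged to Ampd2 (0.953), followed by Fbxo21 (0.953), Gdpd5 (0.944), Anxa8 (0.943) and Svep1 (0.943). Both Impdh1 and Ampd2 are high in the 22 °C libraries and low in the other 6, and over those 6 the r was 0.53 for Ampd2, 0.58 for Fbxo21, 0.28 for Gdpd5, -0.26 for Anxa8 and -0.02 for Svep1. The likeness therefore rests on the 22 °C libraries. For Gmpr the 5 closest genes were B3gat3 (0.968), Hacd2 (0.964), Dhrs9 (0.960), Aldoa (0.955), a glycolytic aldolase, and Ttc7 (0.954), and without the 4 °C libraries, in which Gmpr is highest, the r of these genes over the other 6 ran from 0.84 to 0.92. The 8 libraries fall into 4 groups and share normalization, and the values are a description.

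**Figure D4:**
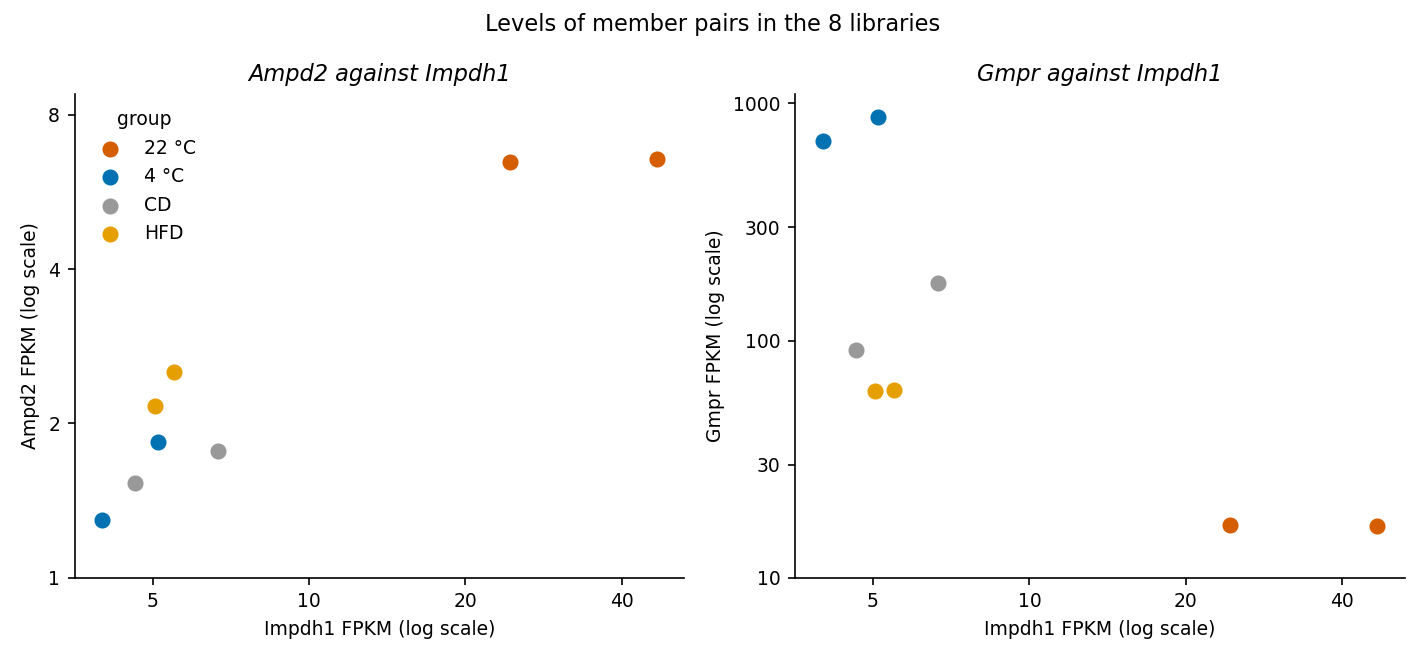
FPKM of Ampd2 (left) and Gmpr (right) against Impdh1 in the 8 libraries, both axes on a log scale, coloured by group. The 22 °C libraries stand apart at 24.3 and 46.7 FPKM of Impdh1, with 6.47 and 6.55 FPKM of Ampd2 and 16.6 FPKM of Gmpr.

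Other genes of purine metabolism were listed by role. Of 39 listed genes 37 were found and 33 could be tested. In the cold 2 passed, both higher, and 31 did not, with a median of 0.13, beside 1.44% called and a median of 0.07 over all genes tested. Both cold libraries were higher for 14 of the 33 and lower for 10, beside 37.9% and 20.6% of all genes. Ak1, the cytosolic adenylate kinase abundant in muscle, was at 12.6 and 10.1 FPKM at 22 °C and 60.4 and 38.5 FPKM at 4 °C and rose by 2.01 ± 0.28 on the log2 scale (adjusted p = 0.0466). Nme1, a nucleoside diphosphate kinase that transfers phosphate to GDP and other diphosphates, was at 7.83 and 9.42 FPKM and at 24.3 and 22.9 FPKM and rose by 1.36 ± 0.20 (adjusted p = 0.0466). Neither call was kept when any 1 library was left out. Leaving out either 4 °C library left no called gene among all 17470, and leaving out 22 °C replicate 4 or 7 left 244 and 122. The 7 tested genes listed for the making of IMP, which include Prpsap1 and Prpsap2, were between -0.35 and 0.17, and none passed. Prps1 and Prps2 of that list are X-linked and were not tested. The muscle forms Ampd1 (2.98 and 0.701 FPKM at 22 °C, 13.5 and 5.47 FPKM at 4 °C, adjusted p = 0.120) and Adssl1 (15.6 and 11.01 FPKM, 49.9 and 28.6 FPKM, adjusted p = 0.0836) were higher in both cold libraries without passing.

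Under HFD none of the 33 passed, with a median of 0.28, beside 0.0684% called and a median of 0.18 over all genes tested. Both HFD libraries were higher for 13 of the 33 and lower for 4, beside 39.9% and 5.8% of all genes. The lowest was Ampd1, at 3.40 and 7.49 FPKM on CD and 0.507 and 0.102 FPKM on HFD (-2.25 ± 0.36 SE, adjusted p = 0.118). The highest was Gda, guanine deaminase, at 3.70 and 2.78 FPKM on CD and 8.52 and 9.56 FPKM on HFD (1.25 ± 0.31, adjusted p = 0.169). Ak1 was at 16.5 and 17.1 FPKM on CD and 17.1 and 18.7 FPKM on HFD, and Adssl1 at 12.5 and 9.20 FPKM and at 5.46 and 6.74 FPKM, both not passing.

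**Figure D5:**
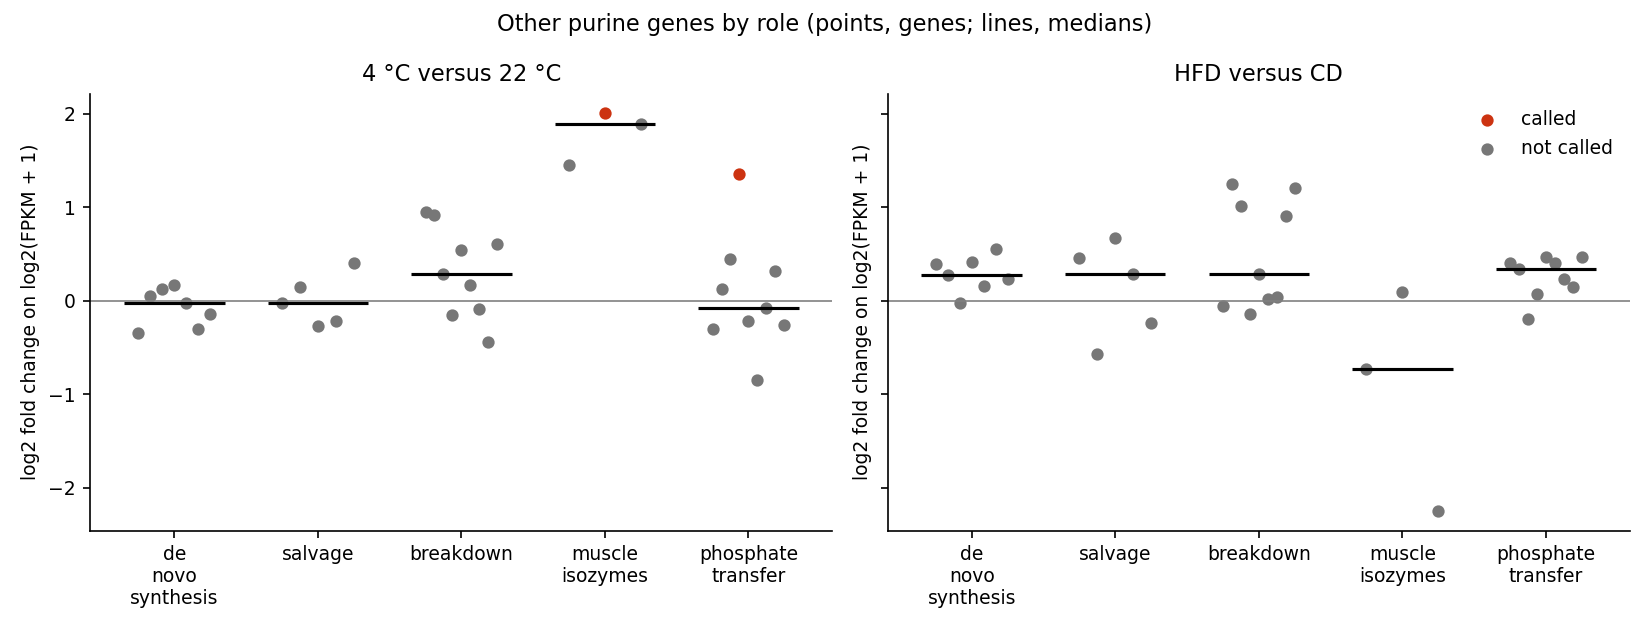
Log2 fold change (vertical axes, log2(FPKM + 1) scale) of the tested other purine genes by role, in the cold (left) and under HFD (right); points are genes, lines medians, and red marks a call. Ak1 at 2.01 and Nme1 at 1.36 are the 2 called genes, and Ampd1 is lowest under HFD at -2.25.

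Of the skeletal muscle markers, all 11 found were higher in both cold libraries (37.9% of all genes) and 10 of 11 were lower in both HFD libraries (5.8% of all genes), but none was called in either comparison. Their summed level was 103 and 502 FPKM at 22 °C, 1788 and 3965 FPKM at 4 °C, 495 and 1393 FPKM on CD and 14.4 and 167 FPKM on HFD. Ckm, a muscle creatine kinase, was at 1002 FPKM in 4 °C replicate 2 and 404 FPKM in replicate 11. Gmpr was lower in replicate 2 than in replicate 11. Of the markers found only Tnnc2 had the order of Gmpr, at 178 FPKM in replicate 2 and 190 FPKM in replicate 11. At 22 °C Ckm was at 115 and 21.7 FPKM and Gmpr at 16.6 FPKM in both libraries. On HFD Ckm was at 31.4 and 3.58 FPKM with Gmpr at 61.8 and 61.1 FPKM, and in CD replicates 6 and 8 both were higher in replicate 8. The part of muscle in the Gmpr, Ampd1, Adssl1 and Ak1 values was not tested. In whole tissue, fewer cells of a type and less RNA per cell cannot be told apart.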

How the data were processed

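The authors depleted ribosomal RNA from BAT RNA, sequenced directional paired-end libraries, mapped reads to GRCm38 with TopHat2 2.0.10 and estimated expression with Cufflinks. The processing notes name Cufflinks 2.2.1 and also STAR, whose role is not given in the sources used here. The authors deposited 1 table of FPKM, with a column for each library and no pooled values. Low values fell on whole multiples of 1 fragment within 0.1 for 97.5% to 98.6% of those tested, which gave the fragments behind a value; intervals of that kind cover counting error only. For each comparison its 4 libraries were fitted with limma 3.58.1 (R 4.3.3, intensity trend) after adding 1 FPKM and taking log2. Autosomal genes reaching 0.1 FPKM in 2 or more of these libraries were tested, two-sided, with Benjamini-Hochberg adjustment over all of them; all 10 members passed this filter. A call needed an adjusted p under 0.05 and a 2-fold change on the log2(FPKM + 1) scale, which understates changes of low genes. On simulated data with known changes, the cold fit called only part of the changed genes and the diet fit none, although nearly all had the right sign. Members, gene lists and tests were chosen with earlier results of these data known. Named genes were all members, other purine genes that were called (otherwise the 2 with the largest change), the 3 muscle isozymes, the 5 genes most like Gmpr and Impdh1, and the highest marker of a list. Other markers were named after their values were seen. The 8 libraries were grouped by their labels; alternatives covered the pseudocount, filter, scaling, genes left out, library type and each library.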

Additional observations from a re-analysis of the deposited data

How the results depend on the processing

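In the cold, the count of called members outside Gmpr and Impdh1 (1) was 0 without a filter and 2 with library type as a covariate (Ampd2 and Gmps), and ran from 0 to 0 when 1 library was left out. Other purine calls in the cold (2) were 0 without a filter, 4 after median centring (Adssl1 and Nme3 added), 1 after quantile normalization (Ak1), 4 with X-linked genes kept (Hprt and Prps1, listed at 0 in both 22 °C libraries, were added), 1 with all 8 libraries in 1 fit (Ak1), 2 after rescaling to the autosomal sum (Ak1 and Ampd1, without Nme1), and 0 to 0 with 1 library left out. Over all genes the cold calls, 252 as reported, were 6 without a filter, 859 with library type, 754 and 489 after median centring and quantile normalization, 516 with the autosomal sum, 920 with X-linked genes kept, 439 in 1 fit and 0 to 244 with 1 library left out. Under HFD, members called (0) were 1 with library type (Gmpr), and other purine genes (0) were 1 with a filter of 1 FPKM, 1 after median centring, 4 with library type and 1 to 4 with 1 library left out (Ampd1 in each). Over all genes the HFD calls, 12 as reported, were 24, 45, 744 and 123 to 752 in these settings. The HFD calls over all genes were 0 without a filter, after quantile normalization, with the autosomal sum and with X-linked genes kept. Lep, Nnat and Npr3 were therefore not called in those settings. With all 8 libraries in 1 fit the HFD calls were 75. Differences near 0 changed sign with scaling (median centring, quantile normalization, autosomal sum). In the cold Impdh2 was then -0.12, -0.14 and -0.23, and Adss -0.16, -0.23 and -0.29. Under HFD Gmpr2 was -0.26, -0.24 and -0.0113, Adss -0.28, -0.23 and -0.0539, Adsl -0.18 and -0.0918 under the first and second, and Ampd2 -0.0201 under the first. With 1 library left out, the cold range was -0.21 to 0.13 for Gmpr2 and -0.015 to 0.20 for Adss, and the HFD range was -0.14 to 0.33 for Gmpr2, -0.29 to 0.16 for Impdh1, -0.29 to 0.45 for Adss, -0.22 to 0.57 for Adsl and -0.72 to 0.11 for Guk1. The causes were not tested. A lone library was assumed to vary like the other group. No paired analysis by replicate number was possible because the 22 °C and 4 °C groups share none and the diets only 1. Library type was the only block fitted.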
